A study of Mus musculus with 24 samples.

Results

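Heme is made from glycine and succinyl-CoA by a chain of enzymes that begins and ends in the mitochondrion. The RNA of 8 of these enzymes, Alas1, Alas2, Alad, Uros, Urod, Cpox, Ppox and Fech, was described here across sorted mouse blood progenitors with and without Ikaros. The members were all probe sets that the platform annotation assigns to 1 of these symbols and to no other gene, which gave 19 of 34945 probe sets with a single symbol, and 8 of 18193 genes once the brightest probe set per gene was kept. The rule names genes by symbol, and brightness chose the probe set kept for each.

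The first and rate-limiting step, 5-aminolevulinate synthase, exists as a housekeeping form, Alas1, and an erythroid form, Alas2, encoded on the X chromosome. Alad, Uros and Urod act next in the cytosol and turn the product into a porphyrin ring, and Cpox, Ppox and Fech finish the ring and insert iron at the mitochondrion. Red cell precursors make heme for hemoglobin, whereas granulocyte precursors need it for hemoproteins such as myeloperoxidase, and free heme is known to restrain Alas1.

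Total RNA from 4 sorted populations was hybridised to 24 one-colour Affymetrix arrays, 3 for each population and genotype. Every mouse carried B-p-GFP-C, a GFP transgene driven by Ikaros regulatory sequence. Wild-type (WT) cells came from the B-p-GFP-C line, whose background is C57BL/6 x C3H, and knockout (KO) cells from B-p-GFP-C mice that were Ikaros null (line I74, kept on C57BL/6 x 129SV). Background and genotype therefore cannot be told apart, and the labels give no age. LSK stands for cells with Sca-1 and Kit but no lineage markers, and LK for those without Sca-1. The labels equate LSK GFPneg-lo with stem cells (HSC), LSK GFPhi with lymphoid-primed multipotent progenitors (LMPP), LK GFPneg with megakaryocyte and erythroid progenitors (MEP) and LK GFPhi with granulocyte and monocyte progenitors (GMP). The 3 arrays of a group are titled biological replicates. Whether an array held 1 animal or a pool is not stated, so p-values measure the spread between these arrays.

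Values are log2 signal. Differences are given as the group named first less the other, on the log2 scale, with the standard error from limma (SE, n = 3 arrays in each group). Called means an adjusted p-value under 0.05, where the adjustment covers all genes of a comparison. Precision is limited by having few arrays. Because whole populations were measured, fewer cells of a type and less RNA per cell cannot be told apart.

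The targeted gene Ikzf1 was measured first as a check of the labels. Its brighter probe set read 10.99 to 11.99 on the 12 WT arrays and 6.51 to 8.88 on the 12 KO arrays, with no overlap. A second probe set read 5.88 to 6.53 on all 24 and did not separate the genotypes. Erythroid markers, averaged over 12 of 14 listed genes on the array, had their highest array means in LK GFPneg (10.40 to 10.46 in WT, 10.32 to 10.54 in KO) and their lowest in WT LK GFPhi (6.93 to 7.26). Granulocyte and monocyte progenitor markers, averaged over 9 of 10, ran the other way, at 7.24 to 7.90 in LK GFPneg and 11.83 to 12.15 in LK GFPhi of both genotypes. The 6 globin genes measured stayed dim, with a list mean of 5.69 to 6.10 on every array. Hbb-b1, Hbb-bs, Hbb-bt and Ahsp were also listed but had no probe set assigned to them alone. Their RNA was therefore not measured here. Hba-a2 and Hbb-bh1 were each higher in WT LK GFPneg than in LSK GFPneg-lo by 0.32 (adjusted p = 0.0254 and 0.00392 in limma). The Hba-a2 call was lost without WT LSK GFPneg-lo replicate 2 (adjusted p = 0.0816) or 3 (0.053) or WT LK GFPneg replicate 1 (0.135). KO LK GFPhi replicate 3 had an erythroid marker mean of 8.14, against 7.40 and 7.33 on the other KO arrays of that population.

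The sequences upstream of 4 members are shown. Alas2 was taken as a textbook target of the erythroid factor GATA1, and Cpox because it varied most. Uros was taken because it is known to have separate housekeeping and erythroid starts. Alas1 was taken because it ran opposite to the rest between the LK populations. Each sequence is the 250 bases before an annotated start, 5′ to 3′ on the gene's strand, from RefSeq's promoter table on build GRCm38.p6. Capitals mark 2 kinds of words, searched on both strands: the GATA words, which are AGATAA and also TGATAA, with their variants ending in G, and CACCC.
Alas1, first start: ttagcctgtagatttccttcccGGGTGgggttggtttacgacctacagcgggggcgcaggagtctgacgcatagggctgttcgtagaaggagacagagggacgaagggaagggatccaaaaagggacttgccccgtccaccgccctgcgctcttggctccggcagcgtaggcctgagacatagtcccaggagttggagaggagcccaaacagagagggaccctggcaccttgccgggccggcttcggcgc
Alas2: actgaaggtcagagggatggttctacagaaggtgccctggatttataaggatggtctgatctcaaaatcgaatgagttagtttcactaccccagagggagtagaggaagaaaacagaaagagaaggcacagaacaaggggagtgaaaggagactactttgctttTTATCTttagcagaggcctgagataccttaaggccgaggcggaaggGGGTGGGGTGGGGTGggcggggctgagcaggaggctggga
Uros, second start: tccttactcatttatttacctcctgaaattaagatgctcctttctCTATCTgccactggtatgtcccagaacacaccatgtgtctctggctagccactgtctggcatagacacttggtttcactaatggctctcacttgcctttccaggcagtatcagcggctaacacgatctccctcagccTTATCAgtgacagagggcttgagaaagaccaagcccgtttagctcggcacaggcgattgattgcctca
Cpox: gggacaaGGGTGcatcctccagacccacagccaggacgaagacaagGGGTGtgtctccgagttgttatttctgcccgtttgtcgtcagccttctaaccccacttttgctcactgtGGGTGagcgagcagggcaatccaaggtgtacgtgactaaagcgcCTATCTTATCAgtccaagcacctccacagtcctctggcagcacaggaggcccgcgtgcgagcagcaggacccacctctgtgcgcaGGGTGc

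Alas1 (chr9:106247955-106248204, minus strand) held no GATA word and 1 CACCC word. Alas2 (chrX:150547167-150547416, plus strand) held 1 GATA word 86 bases before the start and 3 CACCC words within 40 bases of it. The second Uros start (chr7:133702501-133702750, minus strand) had 2 GATA words, and the first Uros start had none. Cpox (chr16:58669958-58670207, plus strand) held 2 GATA words, 91 and 86 bases before the start, that overlap in 1 letter, and 4 CACCC words. No GATA word lay in the windows of Alad, Urod or Ppox. Fech was left out of this search. Over 10 windows of the 7 other members, 3 held a GATA word and 5 a CACCC word. Among all 32851 promoters of the table the shares were 26.5% for a GATA word and 52% for CACCC, and a match describes letters, not a bound site. GGGAA, the core word bound by Ikaros, was also searched on both strands and is not capitalised. It was in 7 of the 10 windows and in 56.2% of all promoters.

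**Figure D1:**
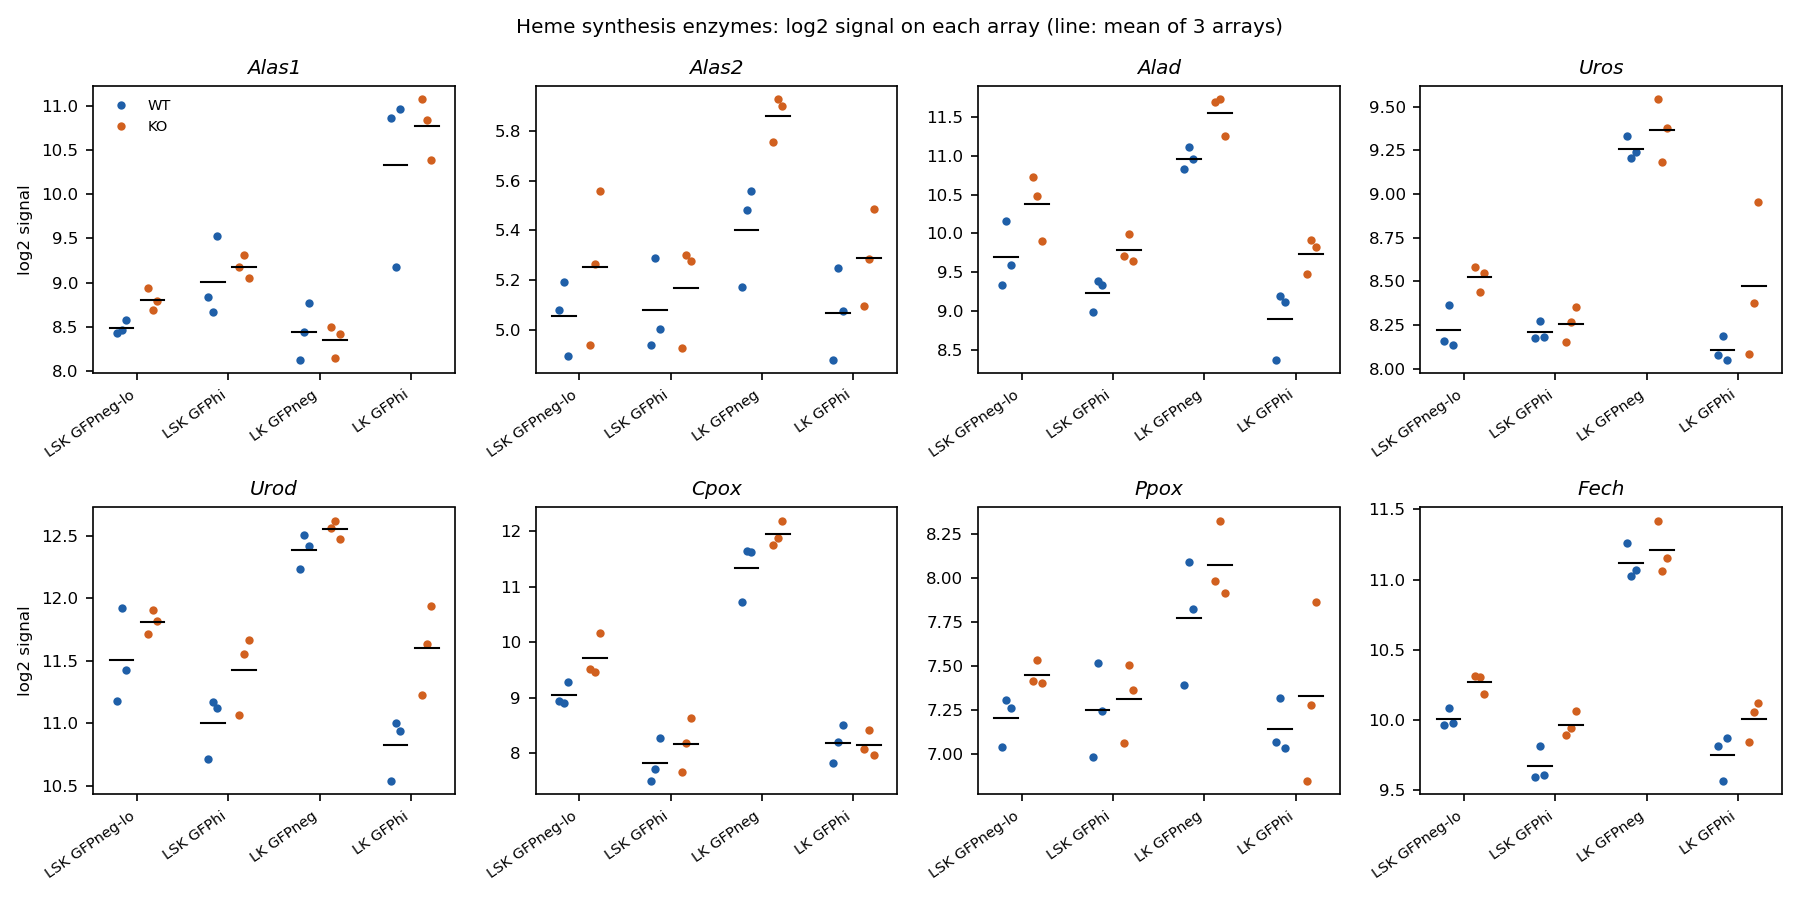
Log2 signal of the 8 enzymes (1 panel each, vertical axis) on each array of the 4 populations (horizontal axis), WT in blue and KO in orange, with a line at the mean of 3 arrays. Alas1 is highest in LK GFPhi, at 10.33 in WT and 10.77 in KO, and the other enzymes are highest in LK GFPneg in both genotypes.

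Alas1 (chr9:106233455-106247954), the housekeeping form of the first enzyme, was highest in the GMP population. In WT it read 8.43, 8.46 and 8.57 in LSK GFPneg-lo, 8.84, 8.67 and 9.52 in LSK GFPhi, 8.13, 8.44 and 8.77 in LK GFPneg, and 10.86, 9.17 and 10.97 in LK GFPhi. The KO arrays read 8.95, 8.69 and 8.79, then 9.18, 9.31 and 9.05, then 8.50, 8.15 and 8.42, and last 11.08, 10.84 and 10.38 in the same order of populations. LK GFPhi was the highest population in both genotypes, and WT LK GFPhi replicate 2 was the single array of that population that fell among the LSK GFPhi values. The second Alas1 probe set was low on that array too, at 6.10 against 7.42 and 7.54 on the other WT arrays.

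Alas2 (chrX:150547417-150570622), the erythroid form, was dim. Its only probe set lay at the 20.2 percentile of probe set means and spanned 4.88 to 5.93 over all 24 arrays. It read 5.17, 5.48 and 5.56 in WT LK GFPneg and 5.75, 5.93 and 5.90 in KO LK GFPneg. The KO LK GFPneg arrays were above every other array of the series, and elsewhere the range was 4.88 to 5.56. No filter on low values was applied in the fit, so all 8 enzymes were tested.

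Alad (chr4:62505984-62520063), which joins molecules of 5-aminolevulinate, read 10.83, 11.11 and 10.96 in WT LK GFPneg and 11.69, 11.73 and 11.25 in KO LK GFPneg. In LSK GFPneg-lo it read 9.34, 10.16 and 9.60 in WT and 10.73, 10.48 and 9.91 in KO. LSK GFPhi gave 8.98, 9.38 and 9.33 in WT and 9.71, 9.99 and 9.65 in KO, and LK GFPhi gave 8.37, 9.20 and 9.12 in WT and 9.48, 9.91 and 9.82 in KO. The KO arrays lay above the WT arrays without overlap in every population but LSK GFPneg-lo.

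Uros (chr7:133686142-133710467), uroporphyrinogen III synthase, was close to flat outside LK GFPneg. WT arrays read 9.33, 9.20 and 9.24 in LK GFPneg and between 8.05 and 8.37 in the other populations. KO arrays read 9.54, 9.18 and 9.38 in LK GFPneg, 8.44 to 8.58 in LSK GFPneg-lo, 8.15 to 8.36 in LSK GFPhi, and 8.08, 8.38 and 8.96 in LK GFPhi. The spread of that last group (SD 0.44) was the widest for Uros, and its highest array was replicate 3. Urod (chr4:116989965-116994436), which decarboxylates the first ring, read 12.23, 12.51 and 12.42 in WT LK GFPneg and 12.56, 12.62 and 12.48 in KO LK GFPneg. It was lowest in WT LK GFPhi, at 10.54, 11.00 and 10.94, where KO arrays read 11.23, 11.63 and 11.94.

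Cpox (chr16:58670208-58680391), coproporphyrinogen oxidase, varied most of the 8. Its group means spanned 4.12, above 98.8% of genes, whose median span was 0.47. WT LK GFPneg read 10.73, 11.65 and 11.62 and KO LK GFPneg 11.76, 11.87 and 12.19. LSK GFPneg-lo was intermediate, at 8.94, 8.91 and 9.27 in WT and 9.52, 9.46 and 10.17 in KO, and all 12 arrays of the GFPhi populations lay between 7.49 and 8.63. Ppox (chr1:171276991-171281193), the next oxidase, had a span of 0.93, with group means from 7.14 to 8.07. Fech, ferrochelatase, which places the iron, read 11.26, 11.02 and 11.07 in WT LK GFPneg and 11.42, 11.06 and 11.15 in KO LK GFPneg. Every array outside LK GFPneg was lower, between 9.56 and 10.32.

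In order of group means, all members but Alas1 ran from KO LK GFPneg to WT LK GFPneg and then down. Of the 56 pairs of neighbours in these orders, 6 were called, where 2.04% of such pairs were over all genes. Of the 6 pairs, 5 were between a WT and a KO group, so that genotype and population both differ in them. They were the step from WT LK GFPneg down to KO LSK GFPneg-lo for Uros, Urod, Cpox and Fech (0.735, 0.57, 1.62 and 0.85), the step from WT LK GFPhi down to KO LSK GFPhi for Alas1 (1.15), and the step from WT LSK GFPneg-lo down to WT LK GFPhi for Cpox (0.86). For Alas2, Alad and Ppox no neighbouring pair was called.

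Most other probe sets of a member followed the kept one over the 8 group means. The correlation was 0.99 for Alas1, 0.96 for Alad, 0.97 for Urod, 0.99 and 0.98 for Cpox, and 0.9984 and 0.98 for 2 of the 3 further Fech probe sets. It was 0.71 for Uros and 0.82 for 1 Ppox probe set. Exceptions were a further Ppox probe set (0.13) and a further Fech probe set (-0.65). Probe sets that followed the kept one could still differ in the span of their group means. The span was 1.54 for the kept Fech probe set and 2.50 and 3.11 for the 2 that followed it. For Urod it was 1.73 against 2.09, for Alad 2.66 against 1.05, and for Uros 1.26 against 0.46. The sizes of differences given here therefore depend on the probe set kept. The 8 points share arrays and normalization, and these correlations are descriptions.

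The step from stem cells to erythroid progenitors was tested first, because it follows the lineage in which heme demand rises. In WT, LK GFPneg was above LSK GFPneg-lo for 5 of 8 enzymes, all between Alad and Fech in the pathway, and the largest difference was at Cpox. Cpox differed by 2.29 (SE 0.28, adjusted p = 3.08e-06), a 4.90-fold higher signal. Alad differed by 1.26 (SE 0.24, adjusted p = 0.000439), Fech by 1.11 (SE 0.11, adjusted p = 2.05e-07), Uros by 1.04 (SE 0.15, adjusted p = 2.08e-05) and Urod by 0.88 (SE 0.20, adjusted p = 0.00229). Ppox was at 0.57 (SE 0.21, adjusted p = 0.0532) and Alas2 at 0.35 (SE 0.16, adjusted p = 0.12), and neither was called. Alas1 gave -0.04 (SE 0.33, adjusted p = 0.955). Over all genes 13% were called higher and 14.1% lower in this comparison, against 5 higher and 0 lower of the 8 enzymes. Of the members' 19 probe sets 11 were higher, and 1 was lower, the Fech probe set that ran against the others (-0.73, SE 0.26, adjusted p = 0.0455 over all probe sets), where 12.5% of all probe sets were called higher and 11.5% lower. The divergent Ppox probe set was at -0.40 (SE 0.20, adjusted p = 0.174), opposite in sign to the kept one. The median difference was 0.96 over the members and 0.03 over all genes. With replicate number as a block, Alas2 (adjusted p = 0.0118) and Ppox (adjusted p = 0.00935) were called as well. The shares above are those of the fit without the block.

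**Figure D2:**
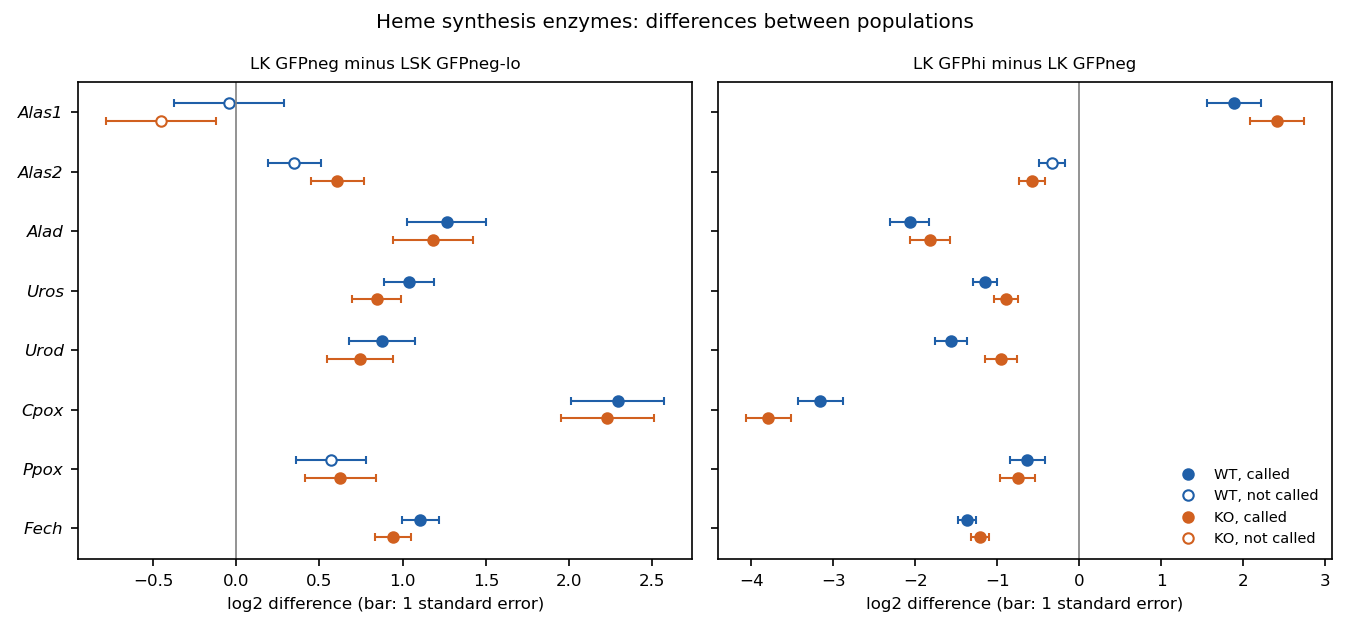
Differences between populations (horizontal axis, log2, bar 1 SE) for the 8 enzymes (vertical axis), LK GFPneg minus LSK GFPneg-lo at left and LK GFPhi minus LK GFPneg at right, WT in blue and KO in orange, with filled points called by limma. At right Alas1 lies at 1.89 in WT and 2.41 in KO, while the other enzymes lie below 0.

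Between the LK populations Alas1 and the later enzymes moved in opposite directions. In WT, LK GFPhi was above LK GFPneg for Alas1 by 1.89 (SE 0.33, adjusted p = 0.000211), a 3.70-fold higher signal, and below it for 6 enzymes. Cpox fell by 3.15 (SE 0.28, adjusted p = 3.43e-08), Alad fell by 2.07 (SE 0.24, adjusted p = 1.39e-06) and Urod fell by 1.56 (SE 0.20, adjusted p = 5.25e-06). Fech fell by 1.37 (SE 0.11, adjusted p = 8.2e-09) and Uros fell by 1.15 (SE 0.15, adjusted p = 5.56e-06). Ppox fell by 0.63 (SE 0.21, adjusted p = 0.0429), a call lost in a fit of those 2 groups alone (0.0658), over all probe sets (0.0527), and without LK GFPneg replicate 2 or 3 or LK GFPhi replicate 1 or 3 (adjusted p 0.117 to 0.217). Alas2 was at -0.34 (SE 0.16, adjusted p = 0.181) and was called with replicate number as a block (adjusted p = 0.0203). Of all genes 9.98% were called higher and 8.6% lower, against 1 and 6 of the 8 enzymes. Among all probe sets of the members, 2 were higher and 11 lower of 19, against 7.83% and 7.26% of all probe sets. The divergent Fech probe set gave 0.38 (SE 0.26) and the divergent Ppox one -0.55 (SE 0.20), neither called.

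The same steps in KO cells called more of the enzymes, though tests of whether a step differs between genotypes, given below, called none. The KO and WT steps share no arrays, but they share the estimate of spread of the single fit. In KO, LK GFPneg was above LSK GFPneg-lo for 7 of 8 enzymes, all but Alas1, against 9.14% of genes called higher and 13.5% lower. The called differences ran from 0.61 for Alas2 (SE 0.16, adjusted p = 0.00766) and 0.63 for Ppox (SE 0.21, adjusted p = 0.0386) to 2.23 for Cpox (SE 0.28, adjusted p = 4.31e-06). Ppox lost its call without any single one of 5 arrays, all but KO LK GFPneg replicate 3 (adjusted p 0.0635 to 0.142), and Alas2 without KO LSK GFPneg-lo replicate 1 (adjusted p = 0.0625). The divergent probe sets were not called in this step, at 0.10 for Ppox and -0.02 for Fech. From LK GFPneg to LK GFPhi all 8 were called. Alas1 was higher in LK GFPhi by 2.41 (SE 0.33, adjusted p = 1.12e-05), 5.32-fold, and the 7 others fell, with values from -0.57 for Alas2 to -3.79 for Cpox (SE 0.28, adjusted p = 2.17e-09). The divergent probe sets were at -0.33 for Ppox and 0.06 for Fech, neither called. The background was 12.8% of genes higher and 10.6% lower. Without KO LK GFPhi replicate 1, Alas2 (adjusted p = 0.0585) and Ppox (adjusted p = 0.0927) were not called, Ppox was not in a fit of those 2 groups alone (0.109), and without KO LK GFPneg replicate 2 Ppox was not (adjusted p = 0.0548).

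The 2 remaining steps each called 1 enzyme in each genotype. From LSK GFPneg-lo to LSK GFPhi, Cpox fell by 1.22 in WT (SE 0.28, adjusted p = 0.0122) and fell by 1.56 in KO (SE 0.28, adjusted p = 0.00222), and no other enzyme was called. The background was 1.63% of genes higher and 2.89% lower in WT, and 0.934% and 1.42% in KO. The WT call was lost without LSK GFPneg-lo replicate 3 (adjusted p = 0.0647), LSK GFPhi replicate 1 (0.0773) or LSK GFPhi replicate 2 (0.0564). With replicate number as a block 2 enzymes were called in each genotype, and the shares above are those of the fit without it. Between LSK GFPhi and LK GFPhi, only Alas1 was called, higher in LK GFPhi by 1.32 in WT (SE 0.33, adjusted p = 0.0233) and 1.59 in KO (SE 0.33, adjusted p = 0.0218), against 2.02% of genes higher and 2.53% lower in WT, and 0.467% and 0.715% in KO. The WT arrays overlapped, with LK GFPhi replicate 2 (9.17) below LSK GFPhi replicate 3 (9.52). The WT Alas1 call was lost without LK GFPhi replicate 1 or 3 or LSK GFPhi replicate 1 or 2 (adjusted p 0.0962 to 0.178) and in a fit of those 2 groups alone (0.305). The KO Alas1 call was lost without any LSK GFPhi array or LK GFPhi replicate 1 or 2 (adjusted p 0.0594 to 0.0964).

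**Figure D3:**
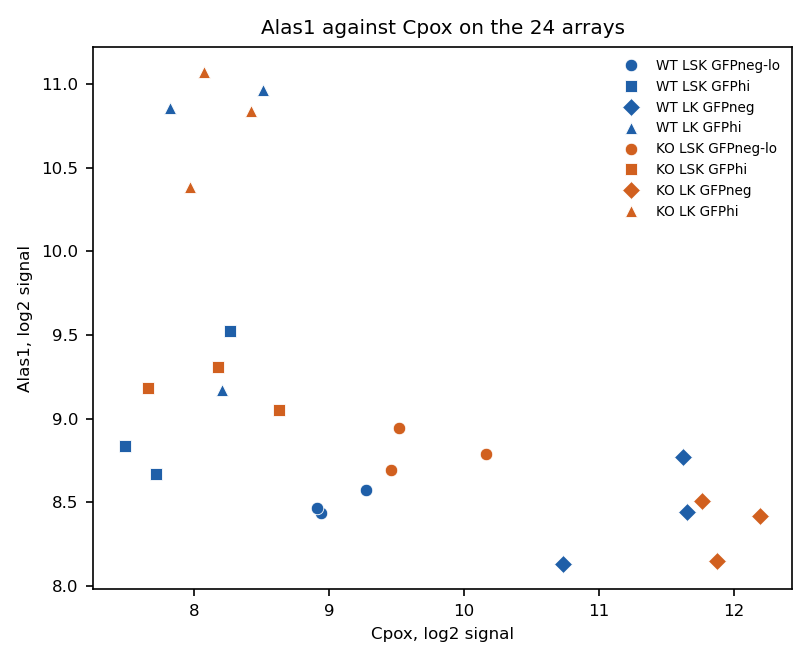
Alas1 (vertical axis) against Cpox (horizontal axis) on each of the 24 arrays, both in log2 signal, with a marker shape per population and a colour per genotype. LK GFPneg arrays sit at the lower right, with Cpox between 10.73 and 12.19, and all LK GFPhi arrays but one sit at the upper left, with Alas1 between 10.38 and 11.08. The exception is WT replicate 2, with Alas1 at 9.17.

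Over the 8 group means, the 6 members from Alad to Fech correlated with each other at 0.92 to 0.98, in 15 pairs. Alas2 correlated with these 6 at 0.84 to 0.96 and Alas1 at -0.65 to -0.49. Among 4208 genes whose group means span at least 1 log2 unit, the genes most like Alas1 over the 8 means were AB124611, Tmed3 and Cldn15 (r = 0.9940, 0.9927 and 0.9886). Cpox was most like Acsl6, Polg and Cldn13 (0.9937 to 0.9943), and Fech like Mthfd1, Abcb6, a porphyrin transporter, and Nxpe2 (0.9945 to 0.9974). Uros was most like Glrx5, a glutaredoxin of iron-sulfur cluster assembly (0.9937), 9530077C05Rik (0.9924) and Pla2g12a (0.9923), and Alad like Scd1, Lefty1 and Reep6 (0.9934 to 0.9989). Alas2 was most like Bdh1, Josd2 and Sfrp4 (0.9770 to 0.9873), Urod like Acot13, Ehhadh and Cds2 (0.9883 to 0.9914), and Ppox like Ptdss2, Pvt1 and Agrn (0.9785 to 0.9920). The members' probe sets share arrays and normalization with these genes, and likeness is a description of these means.

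Whether the enzymes differ between KO and WT, which also differ in strain background, was tested within each population. The difference was above 0 for 8, 8, 7 and 7 of the 8 enzymes in LSK GFPneg-lo, LSK GFPhi, LK GFPneg and LK GFPhi, and 2 were called, both in LK GFPhi. Over all their probe sets it was above 0 for 16 of 19 in each population. The enzymes and their probe sets share arrays, so counts of signs here and below are descriptions, not independent observations. The divergent Ppox probe set was at -0.54, -0.26, -0.04 and 0.18 in that order of populations and the divergent Fech one at -0.62, -0.61, 0.09 and -0.24, none of them called. In LSK GFPneg-lo the 8 differences ran from 0.20 (Alas2) to 0.67 (Alad and Cpox) and 0 of 8 were called by limma, against 1.26% of genes called higher and 0.879% lower. At an unadjusted p under 0.05 there were 3, against 9.99% of genes. In LSK GFPhi they ran from 0.05 (Uros) to 0.55 (Alad), with 0 called by limma against 2.91% and 1.69%, and 3 at an unadjusted p under 0.05 against 11.9% of genes. In LK GFPneg they ran from -0.09 (Alas1) to 0.61 (Cpox), with 0 called by limma against 1.2% and 1.45%, and 3 at an unadjusted p under 0.05 against 10.2% of genes. The members' median differences were 0.30, 0.23 and 0.24, beside 0.03, 0.01 and 0.04 over all genes. Array values did not overlap, KO above WT, for 5, 2 and 3 of the 8 enzymes, where the share over all genes was 10.5%, 9.67% and 8.26%. With replicate number as a block, Cpox was called in LSK GFPneg-lo (0.67, SE 0.18, adjusted p = 0.0385) and Alas2 in LK GFPneg (0.46, SE 0.11, adjusted p = 0.021). The same block raised the count of genes called from 389 to 844 and from 483 to 888.

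**Figure D4:**
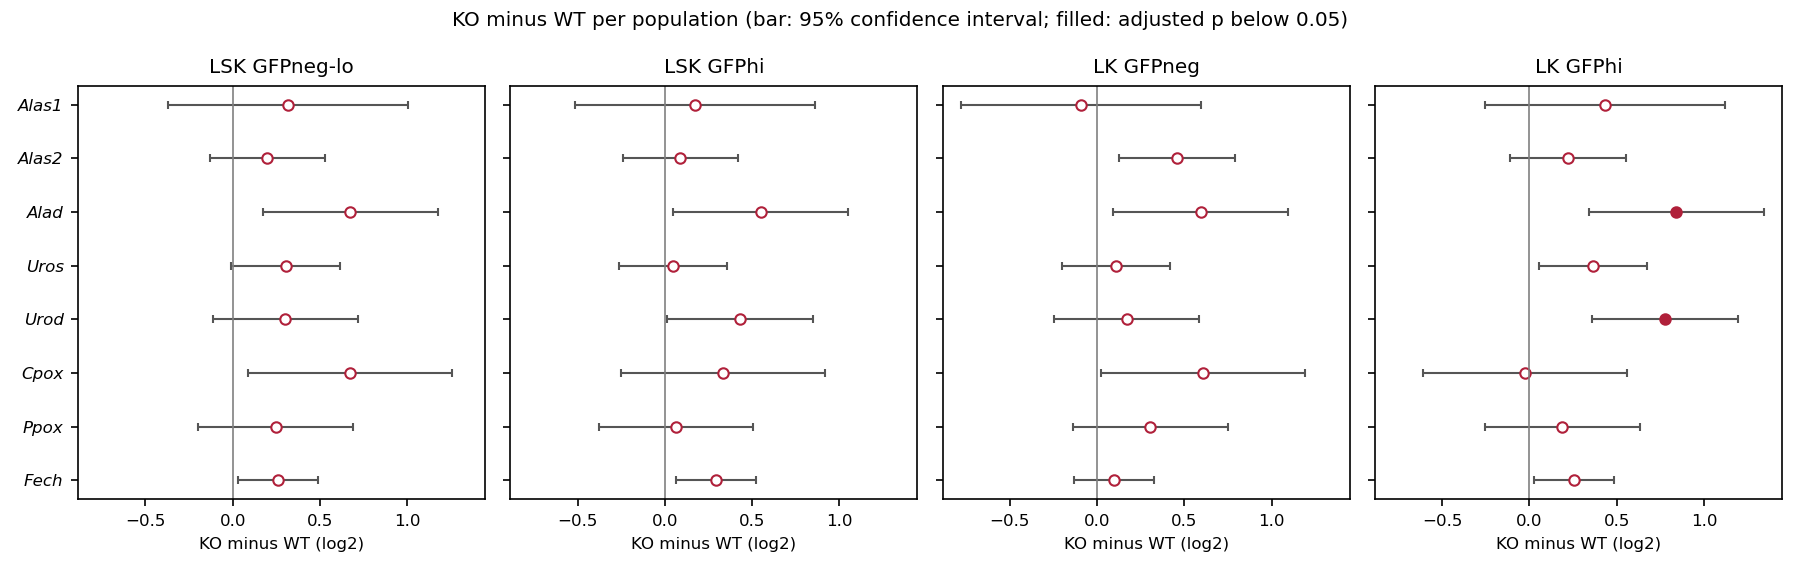
KO minus WT (horizontal axis, log2, bar 95% confidence interval) for the 8 enzymes (vertical axis) in 1 panel per population, with filled points called by limma. Alad at 0.84 and Urod at 0.78 in LK GFPhi are the filled points, and all points but Alas1 in LK GFPneg and Cpox in LK GFPhi lie above 0.

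Alad and Urod were called in LK GFPhi, the GMP population. Alad was higher in KO by 0.84 (SE 0.24, adjusted p = 0.0311), 1.79-fold, and Urod by 0.78 (SE 0.20, adjusted p = 0.0171), 1.71-fold, with no overlap of arrays for either. Of all genes 5.78% were called higher and 3.79% lower, and 17.1% had KO arrays wholly above WT arrays, against 2 of the 8 enzymes on both counts. The second Urod probe set was called too, at 0.51 (SE 0.15, adjusted p = 0.0418 over all probe sets, of which 4.32% were called higher and 4.03% lower), and the second Alad one was at 0.37 (SE 0.14, adjusted p = 0.118). The other 6 enzymes ran from -0.03 (Cpox) to 0.43 (Alas1), and the median was 0.31 beside 0.07 over all genes. Alas1 turned to -0.15 without WT LK GFPhi replicate 2, the low array. Both calls were kept with replicate number as a block (adjusted p = 0.00557 for Alad and 0.000366 for Urod), which raised the genes called from 1740 to 4034. They were lost in a fit of these 6 arrays alone (0.137 and 0.123) and without WT replicate 1 (0.58 and 0.63, adjusted p = 0.18 and 0.101), without KO replicate 2 (0.75 and 0.76, 0.103 and 0.0501) or without KO replicate 3 (0.80 and 0.61, 0.104 and 0.11).

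Markers of other cell types moved with the KO in LK GFPhi. Of the erythroid regulators 6 of 10 were called higher, among them Gata2 (1.39, SE 0.18, adjusted p = 3.27e-05) and Nfe2 (0.86, SE 0.13, adjusted p = 0.000213), and of the erythroid markers 0 of 12 were. The mean of the erythroid markers ran from 6.93 to 7.26 in WT and from 7.33 to 8.14 in KO. Klf1, the erythroid Krüppel-like factor, read 7.14, 7.62 and 9.28 on the KO arrays, and the same replicate 3 was the highest for Uros (8.96), Ppox (7.86), Urod (11.94), Alas2 (5.48) and Fech (10.12). It was the lowest of the 3 for Alas1 (10.38) and Cpox (7.97), and Alad was highest on replicate 2 (9.91 against 9.82 on replicate 3). Of the globins and relatives, Hbb-bh1 was called higher (0.36, SE 0.08, adjusted p = 0.00432), a call lost in a fit of these 6 arrays alone (0.137) and after further quantile normalization (0.0694). Eosinophil markers were called higher for 3 of 4, mast cell and basophil markers for 5 of 8 (list mean 7.08 to 7.55 in WT and 8.62 to 9.57 in KO), stem cell markers for 2 of 7 and megakaryocyte markers for 4 of 9, with 1 of the 9 lower. Early lymphoid markers were lower for 6 of 7 and granulocyte and monocyte progenitor markers for 2 of 9. Over all genes 5.78% were called higher and 3.79% lower. The part of other cell types in the Alad and Urod differences was not tested.

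Averaged over the 4 populations, a comparison added after the values were seen, the KO minus WT difference was above 0 for all 8 enzymes and 4 were called. Alad was higher by 0.66 (SE 0.12, adjusted p = 0.000528), Urod by 0.42 (SE 0.10, adjusted p = 0.00597), Alas2 by 0.24 (SE 0.08, adjusted p = 0.0422) and Fech by 0.23 (SE 0.05, adjusted p = 0.00687). Cpox (0.40, SE 0.14, adjusted p = 0.0608), Uros (0.21, SE 0.07, adjusted p = 0.0652), Ppox (0.20, SE 0.11, adjusted p = 0.227) and Alas1 (0.21, SE 0.16, adjusted p = 0.442) were not called. Of all genes 9.76% were called higher and 6.36% lower, and the members' median was 0.23 beside 0.04 over all genes. Of the 19 probe sets 7 were called higher and 0 lower, against 7.69% and 6.41% of all probe sets, and the divergent Fech probe set was at -0.34 (SE 0.13, adjusted p = 0.085 over all probe sets) and the divergent Ppox one at -0.16 (SE 0.10, adjusted p = 0.314). Above 0 were 17 of the 19. Alas2 lost its call without any single one of 15 arrays (adjusted p 0.0592 to 0.0837). The calls of Alad, Urod and Fech did not change under any alternative run for this comparison. Markers of other cell types moved in this mean as well. Mast cell and basophil markers were higher for 5 of 8, eosinophil markers for 2 of 4 and erythroid markers for 2 of 12. Megakaryocyte markers were higher for 4 of 9, stem cell markers for 4 of 7, granulocyte and monocyte progenitor markers for 4 of 9, with 1 lower in each of these lists, and erythroid regulators for 6 of 10, with 2 lower. Early lymphoid markers were lower for 7 of 7. Their part in the result was not tested.

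The KO differences themselves were not shown to differ between populations. The 4 interaction contrasts called 0 of 8 enzymes by limma each, where the count at an unadjusted p under 0.05 was 0, 0, 1 and 0, against 3.26%, 5.85%, 10.4% and 8.11% of genes. These are, in order, LSK GFPhi against LSK GFPneg-lo, LK GFPneg against LSK GFPneg-lo, LK GFPhi against LK GFPneg and LK GFPhi against LSK GFPhi. The share of genes called higher was 0.198% and lower 0.115% for LSK GFPhi against LSK GFPneg-lo, 0.319% and 0.489% for LK GFPneg against LSK GFPneg-lo, and 0.066% and 0.077% for LK GFPhi against LSK GFPhi. For LK GFPhi against LK GFPneg the interaction ran from -0.63 to 0.61 over the enzymes (lowest adjusted p = 0.452), and 1.7% of genes were called higher and 0.792% lower.

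Genes that serve the pathway were counted in lists of their own. From LSK GFPneg-lo to LK GFPneg in WT, 5 of 9 mitochondrial heme transporters and partners were higher and 1 was lower. They include Abcb6 (1.86, SE 0.22, adjusted p = 1.68e-06) and Slc25a38, a mitochondrial glycine carrier (1.63, SE 0.18, adjusted p = 1e-06). Iron uptake, storage and sensing genes were higher for 4 of 11 and lower for none, led by Tfrc, the transferrin receptor (2.22, SE 0.22, adjusted p = 2.11e-07), and Slc11a2, an iron importer (1.90, SE 0.19, adjusted p = 2.94e-07). Iron-sulfur cluster assembly genes were higher for 6 of 10, among them Lyrm4 (1.30, SE 0.17, adjusted p = 5.74e-06) and Nfs1, the cysteine desulfurase (0.84, SE 0.12, adjusted p = 1.37e-05). Heme breakdown, export and sensing genes were mixed, with 4 of 11 higher, such as the heme exporter Flvcr1 (1.21, SE 0.15, adjusted p = 3.84e-06), and 3 lower, such as Hmox2, a heme oxygenase (-0.75, SE 0.11, adjusted p = 4.33e-05). Over all genes 13% were called higher and 14.1% lower. The list medians were 0.87, 0.63, 0.73 and 0.20, beside 0.03 over all genes.

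From LK GFPneg to LK GFPhi in WT, the same 4 lists were lower for 4 of 9, 5 of 11, 6 of 10 and 5 of 11 genes and higher for 0, 1, 0 and 1. The share of all genes called was 8.6% lower and 9.98% higher. Blvrb, a biliverdin reductase, fell by 4.76 (SE 0.29, adjusted p = 1.54e-10), the iron exporter Slc40a1 fell by 4.15 (SE 0.35, adjusted p = 1.55e-08) and the transferrin receptor 2 gene Tfr2 fell by 3.93 (SE 0.35, adjusted p = 3.53e-08). Of the other hemoproteins 3 of 7 were higher in LK GFPhi and 1 was lower. Mpo, myeloperoxidase, was higher there by 4.79 (SE 0.31, adjusted p = 4.09e-10) and Cybb, the heme-bearing subunit of the phagocyte oxidase, by 3.43 (SE 0.47, adjusted p = 1.11e-05).

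In KO against WT within LK GFPhi, 0 of 9 transporters and 0 of 10 iron-sulfur genes were called by limma. Iron genes were higher for 2 of 11, Tfr2 (2.11, SE 0.35, adjusted p = 0.000479) and Slc40a1 (1.67, SE 0.35, adjusted p = 0.00387). Breakdown, export and sensing genes were higher for 3 of 11, including the heme-binding protein gene Hebp1 (1.13, SE 0.19, adjusted p = 0.000585) and the heme transporter gene Slc48a1 (0.74, SE 0.15, adjusted p = 0.00241). The share of all genes called was 5.78% higher and 3.79% lower. The list medians were 0.10 for transporters, 0.18 for iron-sulfur, -0.0039 for iron and 0.20 for breakdown genes, beside 0.07 over all genes.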

How the data were processed

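RNA from 24 samples was measured on one-colour arrays. The deposited values are log2 signals per probe set, made by the authors with RMA (background correction, quantile normalization and probe summary; no version given), per the submitters' processing notes. They range from 3.33 to 14.515, with array medians of 6.566 to 6.75, and no 2 arrays were identical. The platform annotation lists 45101 probe sets, of which 64 are controls, 9160 have no symbol, 932 have several and 34945 have 1. Of these 34945, 34741 matched RefSeq by Entrez ID, and 0 symbols changed. The probe set with the highest mean represented each of 18193 genes. RefSeq coordinates and promoters are on GRCm38.p6.

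All 8 groups entered 1 fit in limma 3.58.1 (R 4.3.3, lmFit and eBayes, 16 residual and 3.27 prior degrees of freedom), with Benjamini-Hochberg adjustment over genes within each of 16 comparisons and 1 added later. Every adjusted p in the text is limma's. An exact permutation test of 3 arrays against 3 cannot go below 0.1, so none is given. The fitting steps were tested on simulated data. The spread between arrays may be technical.

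The members and lists were chosen with earlier results of these data known. Named genes are the 8 members with every probe set, Ikzf1, up to 2 called genes in each direction per list and comparison with the smallest adjusted p, and for each member the 3 genes most correlated with it over the group means. Hba-a2, Hbb-bh1, Klf1 and the array values singled out were named with their values known.

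The main fit did not use replicate number in any comparison, and a replicate block was run as an alternative only. Arrays with the same replicate number were described as paired where all their deviations from the group means correlated above 0.1 over genes. That held in 12 of the 17 comparisons, as given with the alternatives, which were a replicate block, only the groups compared, the dimmest 40% left out, probe sets ending in x_at or s_at left out, all probe sets, weights per array, eBayes with trend and robust settings, a second quantile normalization, centring on array medians and each array left out.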

Additional observations from a re-analysis of the deposited data

Results flagged for a closer look

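For 4 flagged genes outside the pathway, the KO difference in LK GFPhi was larger than that in LK GFPneg by the interaction test of limma. They are not the only ones, as 310 of all genes were called higher and 144 lower in this contrast. Larger values were called for the stem cell marker Fgd5 (4.25, adjusted p = 1.07e-06) and the megakaryocyte marker Selp (4.17, adjusted p = 2.69e-06). The interaction was 1.93 for Tfr2 (SE 0.49, adjusted p = 0.0398) and 2.29 for Slc40a1 (SE 0.49, adjusted p = 0.0113), both iron genes. It was 3.56 for Epx, the eosinophil peroxidase (SE 0.93, adjusted p = 0.0466), and 2.16 for the erythroid and stem cell regulator Gata2 (SE 0.25, adjusted p = 3.02e-05). The call was lost in 12 alternatives for Tfr2, in 1 for Slc40a1 and in 14 for Epx, and in none of those run for Gata2. Tfr2 was at 0.87 (adjusted p = 0.236) through its other probe set, and in a fit of the 4 groups alone the adjusted p was 0.0639 for Tfr2, 0.0599 for Slc40a1 and 0.28 for Epx. None of the 8 heme enzymes was called in the same contrast, and 1 had an unadjusted p under 0.05, against 10.4% of all genes. Groups of 3 arrays are too small to test a single array for standing apart.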

How the results depend on the processing

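With replicate number as a block, 1 enzyme was called in KO against WT in LSK GFPneg-lo and 1 in LK GFPneg, where 0 were called without it, and 2 in LSK GFPhi against LSK GFPneg-lo in each genotype, where 1 was. With array weights 2 were called in KO against WT in LSK GFPhi and 2 in WT LSK GFPhi against LSK GFPneg-lo. Fitted on only the groups compared, 0 were called in KO against WT in LK GFPhi and 0 in WT LK GFPhi against LSK GFPhi. Leaving out each array gave 0 to 3 in KO against WT in LK GFPhi, 0 to 1 in WT LSK GFPhi against LSK GFPneg-lo, and 0 to 1 in LK GFPhi against LSK GFPhi in each genotype. The cause was not tested. The counts of all genes called with the block or with weights are given below for KO against WT only.

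Of 1252 alternative values of single enzymes, 15 changed sign, 3 of them with all arrays kept. Those 3 were small differences: Uros in KO against WT in LSK GFPhi at -0.0231 after further quantile normalization, and Alas1 in WT LK GFPneg against LSK GFPneg-lo at 0.0266 after median centring and 0.0440 after further quantile normalization. Leaving out 1 array turned KO against WT in LSK GFPhi for Uros (-0.0006 to 0.10) and Ppox (-0.0686 to 0.20). It turned it in LK GFPneg for Alas1 (-0.25 to 0.0703) and Fech (-0.0109 to 0.17), and in LK GFPhi for Alas1 (-0.15 to 0.75), Cpox (-0.20 to 0.14) and Ppox (-0.0792 to 0.43). Alas1 in WT LK GFPneg against LSK GFPneg-lo ran from -0.21 to 0.12.

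The counts of genes called in KO against WT were 389, 837, 483 and 1740 in LSK GFPneg-lo, LSK GFPhi, LK GFPneg and LK GFPhi. They were 844, 1367, 888 and 4034 with the block, and 1120, 1288, 1210 and 3240 with array weights. Same-numbered arrays did not meet the pairing rule in KO against WT in LSK GFPhi (lowest r = 0.0238), in the mean over populations (-0.0891) or in 3 of the interactions. The block is an alternative in every comparison, also where the rule was met. In the mean over populations it added Uros (adjusted p = 0.0445) and Cpox (0.00307) to the enzymes called. In LSK GFPhi against LSK GFPneg-lo the block called more enzymes than the main fit in each genotype, and only the counts are given. Beside that step and the results where the report gives the blocked value, the block changed no other call of a single enzyme. Of 86 results for genes outside the pathway, 13 lost their call in at least 1 alternative and 0 changed sign. Alas2 lay near the dim end of the signal range, which limits what its probe set can show.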
